A study of Mus musculus with 6 samples.

Results

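The AP-1 and EGR transcription factors were examined in mouse splenic B cells that expressed a signalling mutant after their mitogen had been withdrawn. The 10 genes, Jun, Junb, Jund, Fos, Fosb, Fosl2, Batf, Egr1, Egr2 and Egr3, were taken by symbol from the array annotation, and each had 1 feature carrying exactly that symbol, so that 10 of the 19818 measured genes were members. The MYD88_L265P cells were transduced with a retrovirus for MYD88 with the L265P substitution, the IKK_K171E cells with one for an IKK construct with the K171E substitution, whose subunit the labels do not name, and the EV cells with an empty GFP vector. All 3 groups shared activation with mitogen, retroviral infection, a further 36 hours with mitogen, 24 hours without it (the design text names anti-CD40) and sorting for green fluorescence. RNA of each group was read on 2 arrays (Affymetrix mouse ST 1.0), which the labels call biological replicates, and that number limits the precision of every comparison. The strain and age of the mice and the promoter of the vectors are not given in the sources used here. The constructs acted on top of the endogenous mouse genes.

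AP-1 is a dimer of basic leucine zipper proteins, in which a JUN protein pairs with itself or with a FOS protein and binds the element TGANTCA. BATF is a smaller relative that pairs with JUN proteins, binds composite elements together with IRF4 or IRF8, and is needed for antibody class switching in B cells. The EGR proteins are zinc finger factors that are induced through MAP kinases soon after a B cell receives an antigen receptor signal, and the NAB proteins bind them and repress their activity. Jun, Fos, Fosb, Junb and the Egr genes are immediate early genes, whose transcripts usually rise and decay quickly after a stimulus.

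The labels were checked against the arrays first. Myd88 read 12.25 and 12.31 in MYD88_L265P, 9.43 and 9.14 in IKK_K171E, and 9.30 and 9.35 in EV on the log2 scale. Ikbkb, which encodes the IKK beta subunit, read 11.35 and 10.68 in IKK_K171E, against 9.98 and 10.22 in EV, a difference that missed the threshold (limma adjusted p = 0.0848). Of 6 B cell markers, 5 had a feature of their own, and their mean log2 signal was 11.55 and 11.62 in MYD88_L265P, 11.66 and 11.75 in IKK_K171E, and 12.11 and 12.02 in EV. All 5 had negative log2 fold changes against EV in both construct groups. Limma called Cd22 (-0.78) and Cd79b (-0.67) lower in MYD88_L265P and Cd22 (-0.64) lower in IKK_K171E. Over all features, 7.33% and 0.413% were called lower in these comparisons. The part of these markers in the member values below was not tested. Array medians lay between 8.03 and 8.13 in log2 signal, and replicate arrays correlated at 0.988 to 0.996 over all features. EV replicate 1 correlated with one IKK_K171E array at 0.989, slightly above its 0.988 with EV replicate 2.

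MYD88_L265P was compared with EV to ask which AP-1 and EGR genes differed once the mitogen was gone. Batf and Jun were higher in MYD88_L265P cells, Egr2 and Egr3 were lower, and the other 6 members did not pass the test. That is 4 of 10 members at an adjusted p below 0.05, beside 16.6% of all 21542 features tested. Taken by direction, 2 members were higher and 2 lower, beside 9.32% and 7.33% of all features. The log2 fold change was above 0 in 2 members, beside 33.6% of all features, and its median was -0.20, beside -0.11 over all features. The arrays of both groups did not overlap for 8 of 10 members, beside 71.1% of all features. Leaving out EV replicate 2 reduced the 4 calls to 1, leaving out MYD88_L265P replicate 1 also to 1, and leaving out MYD88_L265P replicate 2 to 0.

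**Figure D1:**
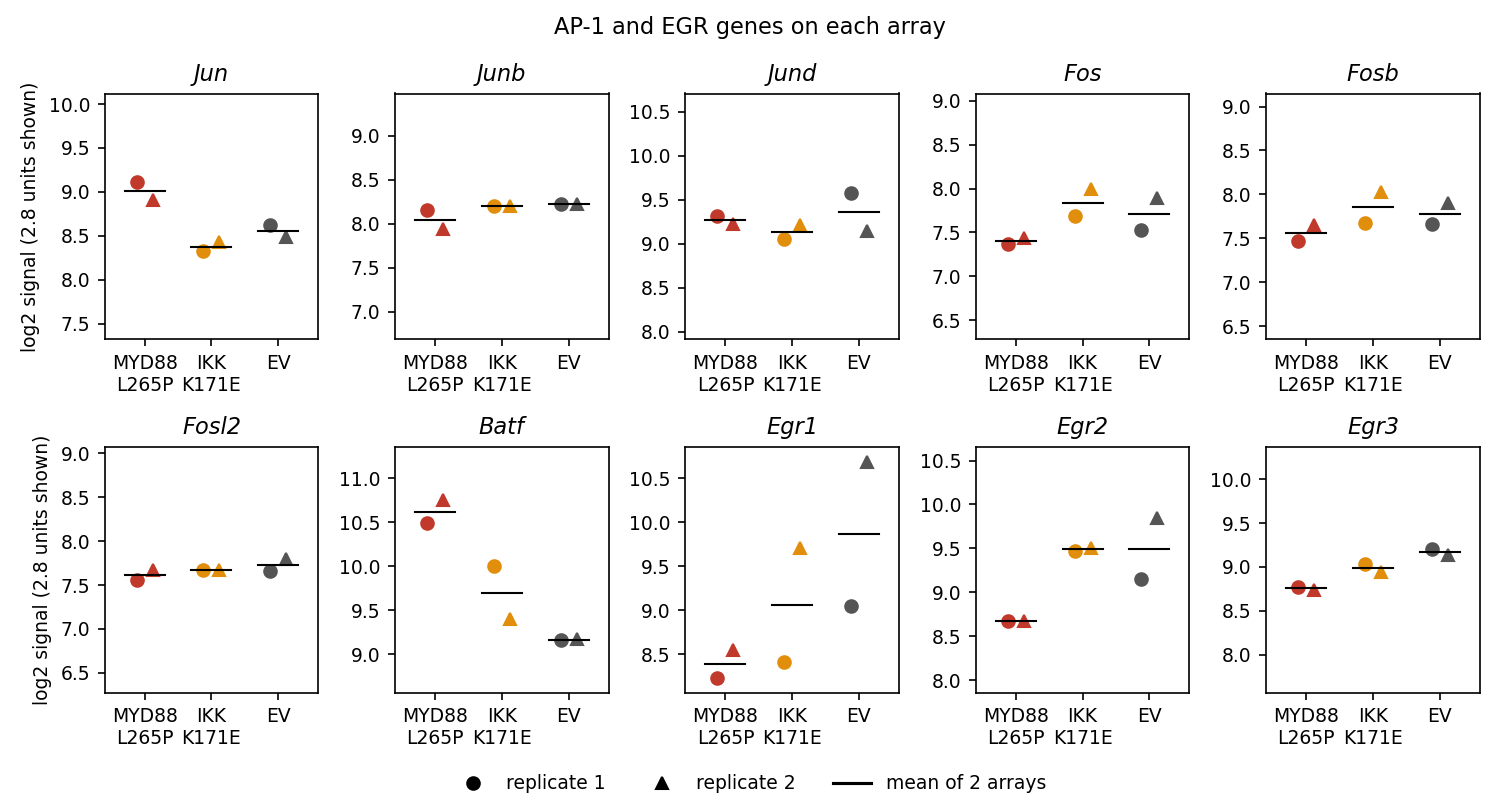
Log2 signal of each gene (vertical axis, log2 scale, 2.8 units in every panel with different centres) on each array of MYD88_L265P, IKK_K171E and EV. Circles are replicate 1, triangles replicate 2 and lines the mean of 2 arrays; Batf is highest in MYD88_L265P at 10.49 and 10.76, and the 2 EV arrays of Egr1 lie apart at 9.05 and 10.69.

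The promoters of Batf, Jun and Egr2, which were called, are shown so that the elements these factors are known to use can be seen beside the genes that changed. RefSeq windows (GRCm38.p6) of 8 of the 10 members were searched. Egr1 and the called member Egr3 were not searched, so nothing is said here about their promoters. The 250 bases before the annotated start are printed 5′ to 3′ for Batf (chr12:85686470-85686719, plus strand), Jun (chr4:95052223-95052472, minus strand) and Egr2 (chr10:67537619-67537868, plus strand, 1 of 5 annotated windows). Capitals mark matches, on either strand, to any of 9 motifs: the AP-1 element TGANTCA, the cyclic AMP response element TGACGTCA, its variant TGACATCA, the shorter core TGACG that lies within TGACGTCA, the EGR element GCGTGGGCG and its variant GCGGGGGCG, the ETS element CCGGAAGT, the CArG box and the kappaB site.
Batf: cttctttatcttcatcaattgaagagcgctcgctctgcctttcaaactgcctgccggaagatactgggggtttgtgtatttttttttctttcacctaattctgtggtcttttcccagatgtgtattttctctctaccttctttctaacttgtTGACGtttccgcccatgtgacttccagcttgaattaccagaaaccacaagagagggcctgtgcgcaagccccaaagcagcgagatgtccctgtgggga
Jun: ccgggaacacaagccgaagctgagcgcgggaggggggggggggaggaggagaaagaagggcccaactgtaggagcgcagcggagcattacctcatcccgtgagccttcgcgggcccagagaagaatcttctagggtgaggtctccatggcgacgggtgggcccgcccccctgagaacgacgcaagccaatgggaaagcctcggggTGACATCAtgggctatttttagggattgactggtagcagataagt
Egr2: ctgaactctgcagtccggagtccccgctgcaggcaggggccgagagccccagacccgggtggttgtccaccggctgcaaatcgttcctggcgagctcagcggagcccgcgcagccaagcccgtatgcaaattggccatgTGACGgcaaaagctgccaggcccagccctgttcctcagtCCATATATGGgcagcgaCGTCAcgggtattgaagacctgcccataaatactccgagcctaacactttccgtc
The Jun window held TGACATCA from 45 to 38 bases before the start, the element that JUN and ATF2 dimers are known to bind in this promoter. TGACATCA was added to the motifs after the Jun window had been read, so this match was known beforehand. Of all 32851 windows of this length, 2.93% held it. The Egr2 window held a CArG box, the element bound by serum response factor, from 72 to 63 bases before the start, as 1.47% of windows did, and TGACG at 2 positions. Batf held TGACG from 98 to 94 bases before the start, a match found in 17.8% of windows. These 3 windows held no match to TGANTCA (6.75% of windows), to GCGTGGGCG (0.536%), to its variant GCGGGGGCG (2.57%), to TGACGTCA (1.55%), to the ETS element CCGGAAGT (2.88%) or to the kappaB site (3.9%). Among the uncalled members searched, Fos, Fosb and Fosl2 held a kappaB match, Fosb and Fosl2 held GCGGGGGCG, and Junb and Jund held neither. A match describes the letters and is not evidence that a factor was bound.

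Batf had the most strongly raised signal among the members. It read 10.49 and 10.76 in MYD88_L265P, 10.00 and 9.40 in IKK_K171E, and 9.16 and 9.17 in EV. Both MYD88_L265P arrays were above both IKK_K171E arrays, which were above both EV arrays. Against EV, Batf was 2.75-fold higher in MYD88_L265P (log2 fold change 1.46, SE 0.19, limma adjusted p = 0.00737), which placed it in the top 0.543% of features by size. Without MYD88_L265P replicate 2 the log2 fold change was 1.32 and the call was lost (adjusted p = 0.0670).

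The same gene in IKK_K171E gave a log2 fold change of 0.53 over EV (95% interval 0.08 to 0.99), which did not pass the adjusted threshold (unadjusted p = 0.0275, adjusted p = 0.221 by limma). The IKK_K171E replicates differed by 0.60, more than 98.6% of all genes did between these 2 arrays. The log2 fold change was 0.84 without IKK_K171E replicate 2 and 0.23 without IKK_K171E replicate 1. MYD88_L265P exceeded IKK_K171E by 0.92 in Batf (SE 0.19, 95% interval 0.47 to 1.38), and limma gave an adjusted p of 0.0721 for that difference.

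Among 19808 other genes, those whose 6 array values ran closest to Batf were Bcat1, Psat1, Pdia6 and Sccpdh. Likeness was the root mean square difference between the deviations of each gene's 6 arrays from its own mean, which was 0.0824 for Bcat1, 0.0847 for Psat1, 0.106 for Pdia6 and 0.110 for Sccpdh in log2 units. Bcat1 encodes a cytosolic branched-chain aminotransferase, Psat1 an enzyme of serine synthesis and Pdia6 a protein disulfide isomerase of the endoplasmic reticulum. Their log2 fold changes in MYD88_L265P over EV were 1.47, 1.53 and 1.48.

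Jun, the AP-1 subunit that can pair with itself as well as with FOS proteins, read 9.12 and 8.90 in MYD88_L265P, 8.32 and 8.43 in IKK_K171E, and 8.63 and 8.49 in EV. Both MYD88_L265P arrays lay above the other 4, and both IKK_K171E arrays lay below both EV arrays. In MYD88_L265P Jun was 1.37-fold higher than in EV (log2 fold change 0.45, SE 0.11, limma adjusted p = 0.0347). The call depended on single arrays. With EV replicate 2 left out the value was 0.38 (adjusted p = 0.131), and with replicate 1 or 2 of MYD88_L265P left out it was 0.34 or 0.56 (adjusted p = 0.184 and 0.0953).

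Junb and Jund, the other JUN genes, did not pass in any of the 3 comparisons. Junb lay within 7.94 and 8.23 on all 6 arrays, and MYD88_L265P differed from EV by -0.18 (95% interval -0.41 to 0.06). Jund lay within 9.05 and 9.57, with a log2 fold change of -0.09 (95% interval -0.43 to 0.26) that reached 0.00 when all arrays were shifted to a common median, and 0.13 or -0.30 without EV replicate 1 or 2. The intervals allow a Jund difference in either direction.

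The FOS genes did not pass the test against EV either. Fos read 7.37 and 7.43 in MYD88_L265P, 7.68 and 7.999 in IKK_K171E, and 7.53 and 7.89 in EV. The MYD88_L265P arrays were the lowest of the 6, with a log2 fold change of -0.31 against EV (95% interval -0.67 to 0.05, limma adjusted p = 0.170). Fosb, a close relative of Fos, had a log2 fold change of -0.22 (95% interval -0.57 to 0.12), and Fosl2, which encodes FRA2, one of -0.11 (95% interval -0.33 to 0.10). These values moved with the EV arrays: Fos stood at -0.49 without EV replicate 1 and -0.13 without EV replicate 2, Fosb at -0.34 and -0.11, and Fosl2 at -0.18 and -0.05, none of which passed. Fosl2 stood at 0.00 under quantile normalization. The signals of these 3 genes lay between 7.37 and 8.03, below the median feature of each array, and without detection p-values low expression could not be separated from background.

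The EGR genes all had negative log2 fold changes in MYD88_L265P against EV. Egr2 read 8.67 and 8.67 in MYD88_L265P, 9.47 and 9.51 in IKK_K171E, and 9.15 and 9.84 in EV. The MYD88_L265P arrays were below the other 4, while the IKK_K171E arrays lay between both EV arrays. Egr2, which restrains lymphocyte activation together with Egr3, fell to 0.565 of the EV level in MYD88_L265P (log2 fold change -0.82, SE 0.20, limma adjusted p = 0.0359). The adjusted p was 0.0535 without EV replicate 2 (log2 fold change -0.48), 0.145 and 0.152 without MYD88_L265P replicates 1 and 2, 0.0585 without either IKK_K171E array and 0.0538 with a common median.

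Egr3 read 8.78 and 8.73 in MYD88_L265P, 9.03 and 8.94 in IKK_K171E, and 9.20 and 9.13 in EV, 3 pairs that did not overlap. It fell to 0.751 of the EV level in MYD88_L265P (log2 fold change -0.41, SE 0.09, limma adjusted p = 0.0245). It lost its call when either EV array (adjusted p = 0.0694 and 0.0651) or either MYD88_L265P array (adjusted p = 0.117 and 0.143) was left out, while the log2 fold change lay between -0.45 and -0.38. T cells also express Egr2 and Egr3. Of 9 T and NK cell markers, 5 passed as lower in MYD88_L265P and 0 as higher, beside 7.33% and 9.32% of all features. Those 5 included Klrd1 (-1.16), Cd3g (-0.67) and Cd3e (-0.47). Of 9 myeloid markers, 1 passed as lower (Adgre1, -1.78) and 0 as higher. The T and NK cell markers had a mean log2 signal between 7.32 and 7.95, below the median feature of each array, and a summed linear signal of 1606 to 1765 in MYD88_L265P, 2377 to 2504 in IKK_K171E and 2195 to 2245 in EV. The part of these cells in the Egr2 and Egr3 values was not tested, and in bulk RNA fewer cells of a type and less RNA per cell cannot be told apart.

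Egr1 had the largest difference in size between MYD88_L265P and EV among the 10 genes, without passing the test. It read 8.23 and 8.55 in MYD88_L265P, 8.41 and 9.70 in IKK_K171E, and 9.05 and 10.69 in EV. Both MYD88_L265P arrays were below both EV arrays, and the IKK_K171E arrays spanned from below to above EV replicate 1. The log2 fold change was -1.48 (SE 0.57, 95% interval -2.81 to -0.15), with an unadjusted p of 0.0338 and an adjusted p of 0.104 by limma. It was -2.30 without EV replicate 1, which passed (adjusted p = 0.0217), and -0.66 without EV replicate 2 (adjusted p = 0.359).

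The spread of Egr1 followed the replicate number. Replicate 2 was higher than replicate 1 by 0.32 in MYD88_L265P, 1.30 in IKK_K171E and 1.64 in EV, gaps larger than those of 94.6%, 99.97% and 99.92% of all genes on the same arrays. Fos (0.07, 0.32 and 0.36) and Fosb (0.18, 0.35 and 0.23) were also higher in replicate 2 of every group. These 3 of 10 members compare with 15.4% of all genes. Egr2 was higher in EV replicate 2 by 0.70, with gaps of 0.00 in MYD88_L265P and 0.04 in IKK_K171E. No label says what the replicate number marks.

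**Figure D2:**
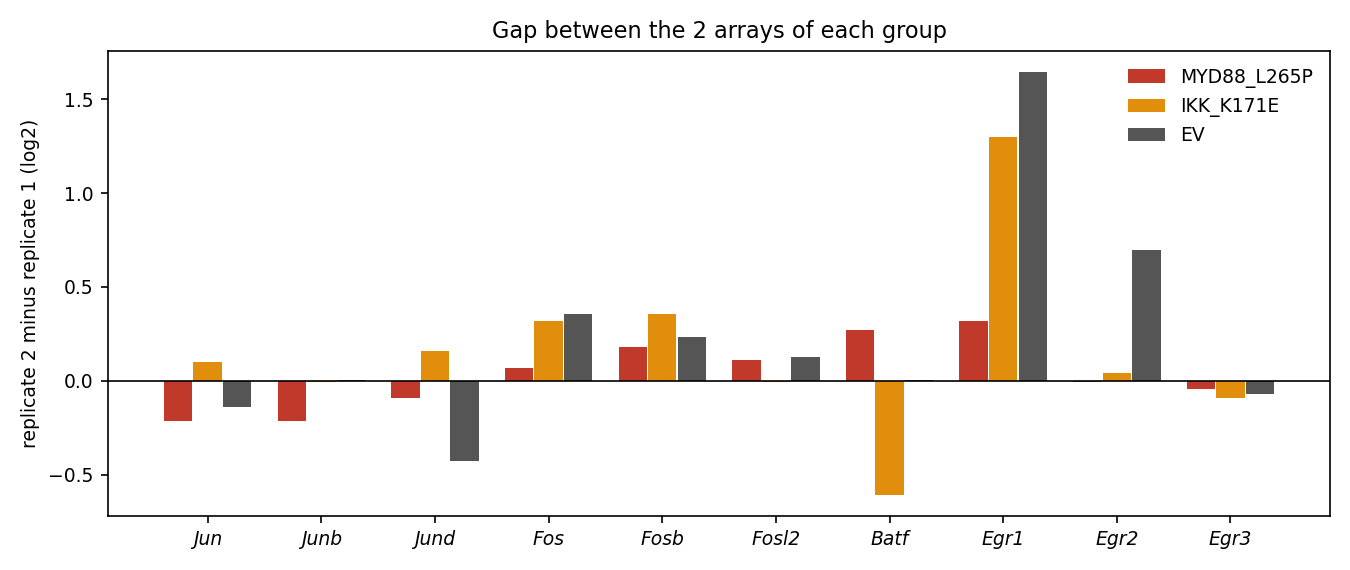
Replicate 2 minus replicate 1 in log2 signal (vertical axis) for each gene, with 1 bar for each of MYD88_L265P, IKK_K171E and EV. Egr1 has the tallest bars in IKK_K171E (1.30) and EV (1.64), and its MYD88_L265P gap is 0.32.

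No gene ran as close to Egr1 as the nearest ones did to Batf. The 4 nearest to Egr1 were Pcp4, the feature annotated to the microRNA gene Mir142, the epoxide hydrolase gene Ephx1 and Xylt1, at root mean square differences of 0.360, 0.376, 0.446 and 0.470 over the 6 arrays. The group means of Egr1 spanned 1.48 in log2 units.

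IKK_K171E was compared with EV to ask what the IKK construct did to the same genes. Limma called 0 of 10 members, beside 1.37% of all features (0.956% higher and 0.413% lower). An unadjusted p below 0.05 was reached by 1 member, Batf, and the share of all features at that level was not computed. The log2 fold change was above 0 in 3 members, beside 40.5% of all features, with a median of -0.04 for the members and -0.04 over all features. Jun stood at -0.18 (95% interval -0.44 to 0.07), Egr3 at -0.18 (-0.39 to 0.02), Egr2 at -0.01 (-0.48 to 0.47) and Egr1 at -0.81 (-2.15 to 0.52). The Egr1 and Egr2 intervals are wide and allow a difference in either direction. The arrays of IKK_K171E and EV did not overlap for 4 members, Jun, Junb, Batf and Egr3, beside 46.0% of all features. Of 9 myeloid markers on the same arrays, 1 was called higher (Csf1r, 1.22) and 1 lower (Adgre1, -1.17), with a median log2 fold change of 0.47. Their summed linear signal was 12603.5 to 14346 in IKK_K171E against 7311 to 9240 in EV, and its brightest marker, Lyz2, did not pass (1.41, limma adjusted p = 0.0501). Their part in the member values was not tested.

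MYD88_L265P was compared with IKK_K171E directly, since both share the EV arrays in the comparisons above. Jun was the 1 of 10 members that passed, beside 1.75% of all features (0.873% higher and 0.877% lower). An unadjusted p below 0.05 was reached by 5 members, and the share of all features at that level was not computed. Jun was 1.55-fold higher in MYD88_L265P (log2 fold change 0.63, SE 0.11, limma adjusted p = 0.0411). Leaving out either IKK_K171E array (adjusted p = 0.103 and 0.176) or either MYD88_L265P array (adjusted p = 0.205 and 0.183) ended the call, with the log2 fold change between 0.53 and 0.74. Egr2 had a log2 fold change of -0.82 (95% interval -1.29 to -0.34), with an adjusted p of 0.107 that became 0.0117 when either EV array, or both, stayed out of the fit. Fos had a log2 fold change of -0.44 (95% interval -0.80 to -0.08, adjusted p = 0.193) and Egr3 one of -0.23 (-0.44 to -0.02, adjusted p = 0.224). The log2 fold change was above 0 in 3 members, beside 39.0% of all features, and the arrays did not overlap for 8 of 10 members, beside 57.0%. Both marker sets had negative log2 fold changes here. Of 9 T and NK cell markers, 3 were called lower in MYD88_L265P than in IKK_K171E (Cd3g, -1.14; Nkg7, -0.75; Cd3e, -0.61) and 0 higher, with a median of -0.56. Of 9 myeloid markers, 1 was called lower (S100a8, -0.52) and 0 higher, with a median of -0.52 and a summed linear signal of 6392 to 7581 in MYD88_L265P against 12603.5 to 14346 in IKK_K171E. The part of these cells in the Egr2, Egr3, Fos and Jun values was not tested.

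**Figure D3:**
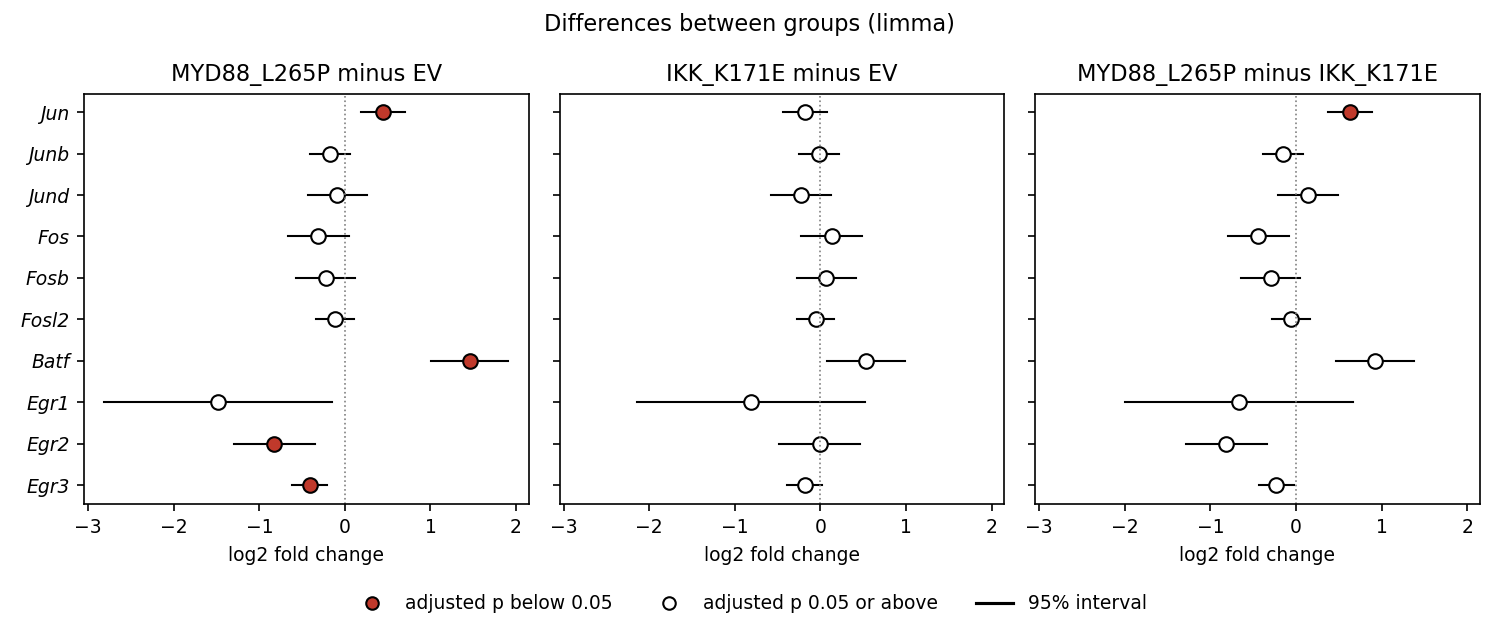
Log2 fold change (horizontal axis) of each gene with its 95% interval in MYD88_L265P minus EV, IKK_K171E minus EV and MYD88_L265P minus IKK_K171E. Filled points passed the threshold: Jun, Batf, Egr2 and Egr3 on the left, none in the middle and Jun on the right.

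Genes that pair with, regulate or resemble the members were read from lists. Of 7 other AP-1 partners, Atf3 was higher in MYD88_L265P than in EV and Atf7 lower, beside 9.32% and 7.33% of all features. Atf3, a stress-induced partner of JUN proteins, read 9.43 and 9.53 in MYD88_L265P, 8.49 and 8.32 in IKK_K171E, and 8.57 and 8.30 in EV. Both MYD88_L265P arrays were above the other 4, with a log2 fold change of 1.04 over EV (SE 0.12, limma adjusted p = 0.00556) and 1.08 over IKK_K171E (adjusted p = 0.0150). Atf7 changed by -0.45 against EV. Fosl1, Batf2, Batf3, Jdp2 and Atf2 did not pass in any comparison. Among Egr4, Nab1 and Nab2, only Nab2, a corepressor that is itself induced by EGR proteins, was called against EV in MYD88_L265P. It was lower there (-0.54, SE 0.10, limma adjusted p = 0.0170). In IKK_K171E against EV, Nab2 stood at -0.39 (limma adjusted p = 0.111), Egr2 at -0.01 and Egr3 at -0.18. A part of the EGR genes in the Nab2 values was not tested.

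Of 27 other immediate early genes measured, 6 were called lower and 1 higher in MYD88_L265P than in EV, beside 7.33% and 9.32% of all features. The log2 fold change was above 0 in 5 of the 27, beside 33.6% of all features, and its median was -0.24, beside -0.11. Zfp36l1, which encodes an RNA-binding protein that promotes mRNA decay, was at -0.88 and also passed against IKK_K171E (-0.68), and Dusp6 and Dusp2, MAP kinase phosphatases, were at -0.71 and -0.59. Trib1, a pseudokinase gene, was at 0.75. Myc read 11.56 and 11.59 in MYD88_L265P, 11.50 and 11.16 in IKK_K171E, and 11.28 and 10.48 in EV, and did not pass (adjusted p = 0.0881 in MYD88_L265P against EV). None of the 27 passed in IKK_K171E against EV by limma, beside 1.37% of all features. An unadjusted p below 0.05 was reached by 7, and the share of all features at that level was not computed.

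Upstream of these genes, 12 of 16 listed MAP kinase cascade genes were measured. Mapk8, which encodes the JUN kinase JNK1, was higher in MYD88_L265P than in EV (0.65) while Map3k5 was lower (-0.46). They were 1 higher and 1 lower call among the 12, beside 9.32% and 7.33% of all features. In IKK_K171E against EV, Mapk8 and Map3k5 stood at 0.51 and -0.32 and did not pass (limma adjusted p = 0.0575 and 0.203). MYD88_L265P differed from IKK_K171E by 0.14 in Mapk8 (limma adjusted p = 0.432). Against IKK_K171E, Map2k6, a kinase of p38, was lower in MYD88_L265P (-0.72), 1 of 12 beside 0.877% of all features. Of 6 factors that act at immediate early promoters, Mrtfa, a coactivator of serum response factor, and Elk3, a partner of it, were lower than in EV (-0.40 and -0.36). That is 2 of 6 called lower in MYD88_L265P against EV, beside 7.33% of all features. Srf itself stood at -0.04. Among 7 factors that share DNA elements with AP-1 or BATF, 3 fell in MYD88_L265P against EV, beside 7.33% of all features. They were Nfatc1 (-0.57), Bach2 (-0.51) and Nfatc2 (-0.48), with 0 higher. Bach2, a repressor that competes for AP-1 elements, and Irf8, a partner of BATF, were called lower in IKK_K171E than in EV (-0.90 and -0.84, limma adjusted p = 0.0375 and 0.0492). These were 2 of the 7, beside 0.413% of all features called lower in that comparison. Nfatc1 (-0.58) and Nfatc3 (-0.46) also had negative log2 fold changes there and did not pass (limma adjusted p = 0.0967 and 0.0702). Irf4, the other partner of BATF, read 10.67 and 10.29 in MYD88_L265P, 10.04 and 9.31 in IKK_K171E, and 9.51 and 9.79 in EV, and did not pass (adjusted p = 0.0569 in MYD88_L265P against EV).

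Heat shock genes, which respond to cell stress and protein folding load, were measured for 7 of 8 listed. Limma called 3 of them higher in MYD88_L265P than in EV, beside 9.32% of all features. Those called were Hsph1 (1.24), Hspd1 (0.97) and Hsp90aa1 (0.83). The brightest feature of each gene is given. In IKK_K171E against EV limma called 0 of the 7, though all 7 had positive log2 fold changes, beside 40.5% of all features. Hsph1 stood at 0.75 there, Hspd1 at 0.68 and Hsp90aa1 at 0.56. A dimmer Hspd1 feature was called higher in IKK_K171E than in EV (1.09, limma adjusted p = 0.0458). Hspa1a, the stress-inducible HSP70 gene, stood at -0.05 in MYD88_L265P against EV. Atf3 and Jun, which were called higher in MYD88_L265P, stood at -0.03 and -0.18 in IKK_K171E against EV. A part of cell handling in the Atf3 and Jun values was not tested. Of 23 list genes named for MYD88_L265P against EV, markers included, the number still called was 19 with EV replicate 1 left out, 10 with EV replicate 2, 18 with either IKK_K171E array, and 2 or 1 with MYD88_L265P replicate 1 or 2. With all arrays shifted to a common median 15 were, and Atf7, Map3k5, Mrtfa, Elk3, Dusp6, Nfatc1, Bach2 and Cd3g were not. For IKK_K171E against EV, 0 of 5 named genes were still called with array weights or with all features of the table. With only these 2 groups in the fit, 1 of the 5 was. Of 5 named for IKK_K171E against EV, 0 stayed called without IKK_K171E replicate 1, and of 7 named for MYD88_L265P against IKK_K171E, 0 did without MYD88_L265P replicate 2 or without either IKK_K171E array.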

How the data were processed

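Total RNA of sorted cells was measured on Affymetrix mouse ST 1.0 chips, with 1 chip for every sample. The authors deposited expression on the log2 scale for each feature, made with oligo and limma, per the submitters' processing notes. Versions, background correction, normalization, summarization and genome build are not given in the sources used here. Per the table itself, there are 24743 features and no detection p-values.

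Features with exactly 1 gene symbol in the platform annotation were tested (21542 features of 19818 genes), and 1522 with several and 1679 with no symbol were left out. Group means were fitted to all 6 arrays without transformation or filter in limma 3.58.1 (R 4.3.3), with eBayes moderation (degrees of freedom 3 residual, 4.17 prior), two-sided p-values and Benjamini-Hochberg adjustment over all tested features, called at an adjusted p below 0.05. The procedure was tested on simulated data. P-values measure the spread between replicate arrays.

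A gene with several features was represented by its brightest. All 10 members were named, with up to 3 called genes of a list in each direction and comparison, the 4 genes most like each of the 2 members with the widest group means, and the transduced genes. Myc, Irf4, Srf, Hspa1a and the dimmer Hspd1 feature were added after their values were seen. The members and lists were chosen with earlier results of these data known. Promoter windows are from RefSeq (GRCm38.p6), and coordinates apply to that build only. Of 9 motifs searched, TGACATCA was added after the Jun window had been read. Alternatives covered replicate numbers, scaling, variance model, array weights, signal filter, features, groups in the fit and each array left out.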

Additional observations from a re-analysis of the deposited data

How the results depend on the processing

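Counts of called features and of called members were recomputed under 16 alternatives per comparison. For MYD88_L265P against EV, 3586 features and 4 members were called, and leaving out 1 array gave 191 to 3554 features and 0 to 4 members. For IKK_K171E against EV, 295 features and 0 members were called. This became 123 features with array weights, 131 with all features of the table and 51 with only the groups compared, and 0 to 506 with 1 array left out, with 0 members in each of these. For MYD88_L265P against IKK_K171E, 377 features and 1 member were called, 592 and 2 with only the groups compared, 0 members with all features of the table (Jun, adjusted p = 0.0574), and 14 to 592 features and 0 to 2 members with 1 array left out. Fewer arrays in a fit leave fewer residual degrees of freedom, and a lone array was assumed to vary like the other groups.

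The replicate numbers were used as a block only as an alternative. Deviations of same-numbered arrays correlated at 0.105 (MYD88_L265P and EV), 0.211 (IKK_K171E and EV) and 0.144 (MYD88_L265P and IKK_K171E). With 2 arrays per group, the 2 pairs of a comparison give the same value by construction, so each correlation is 1 value. By title number, EV shared only 1 number with each other group. No label says that a number marks a batch. With the numbers of the descriptions as a block, 4128, 626 and 498 features were called in the 3 comparisons, and 5, 0 and 1 members. Egr1 was the added member (-1.48, adjusted p = 0.0159). With the numbers of the titles as a block, 2742, 609 and 1251 features and 3, 1 and 3 members were called. Under it Egr1 passed against EV in MYD88_L265P (-1.90, adjusted p = 0.00236) and IKK_K171E (-1.23, adjusted p = 0.0426), Batf and Egr2 joined Jun in MYD88_L265P against IKK_K171E, and Jun and Egr3 were lost against EV (adjusted p = 0.0701 and 0.0851).

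Signs turned only for member values that neither fit called. In MYD88_L265P against EV these were Jund under the title block (0.14), a common median (9.55e-04) and without EV replicate 1 (0.13), and Fosl2 under quantile normalization (0.0048). In IKK_K171E against EV they were Jund under the title block (0.0017), Egr2 with a common median (0.0063), without EV replicate 2 (0.34) and without IKK_K171E replicate 1 (0.014), Fos and Fosb without EV replicate 1 (-0.049 and -0.046) and without IKK_K171E replicate 2 (-0.028 and -0.11), and Fosl2 and Egr1 without EV replicate 2 (0.0054 and 0.0079). In MYD88_L265P against IKK_K171E, Fosl2 turned under quantile normalization (0.049) and a common median (0.016). Over the fits with 1 array left out, the log2 fold change ran from -0.30 to 0.13 for Jund in MYD88_L265P against EV, and in IKK_K171E against EV up to 0.31 for Fos and 0.25 for Fosb, and down to -0.12 for Fosl2, -1.64 for Egr1 and -0.36 for Egr2. The cause was not tested. A common median moved the share of higher calls to 77.7% (56.0% as deposited) in MYD88_L265P against EV and to 66.4% (49.9% as deposited) in MYD88_L265P against IKK_K171E. Each member had 1 feature, so averaging features was not run.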
